A study of Mus musculus with 6 samples.

Results

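Line 199 is the tumor cell line of this study whose tumor was classed as adenosquamous carcinoma alone, and it was compared with the 2 other tumor lines, 233 and 336. The comparison used the 3 tumor libraries out of 6 libraries in all. The other 3 libraries, MEC 1 to 3, come from primary mammary epithelial cells and are shown as a reference. The members are the entries of the expression table with a mean FPKM of at least 1 over the 3 lines, which left 11994 of 37755 entries. FPKM is a fragment count scaled for the length of the transcript and the size of the library.

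All animals were of the C57/Bl6J strain. The tumor lines carry the genotype Mapk8KO Mapk9KO Cre+, in which Wap-Cre, a Cre recombinase driven by a milk protein promoter that is active in luminal cells of the lactating gland, removes both genes for JNK. The MEC libraries carry WAPCre+ with intact JNK genes, so that all 6 libraries share Cre. Each line grew from the tumor of 1 mouse, went through 2 passages on collagen I and was then kept on standard dishes, whereas MEC were primary cultures on collagen I from 3 to 5 pooled virgin females of 10 to 12 weeks, in medium with serum, EGF and insulin. Mouse 199 was classed with adenosquamous carcinoma, mouse 233 with both adenosquamous carcinoma and adenocarcinoma, and mouse 336 with adenocarcinoma. Lines and mice were paired by number, which was not checked further, and the design text of the series calls the lines adenosquamous as a group. With 1 library against 2 there is no replicate check, so the values are a description and no test was made.

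Adenosquamous carcinoma of the breast holds glandular areas and areas of squamous cells. The mammary duct has an inner luminal layer that contains simple keratins such as KRT8 and KRT18, and an outer basal or myoepithelial layer that contains KRT5, KRT14, the transcription factor p63 and the contractile proteins of smooth muscle. Stratified squamous epithelium builds on the same basal keratins and p63, and its upper layers form a cornified envelope from small proline-rich proteins, loricrin, involucrin and filaggrin.

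The 3 lines were alike in summed FPKM, and 17343 to 18645 entries were above 0 in each. Counts were not given, and the ratio of the smallest values put lines 233 and 336 at 0.824 and 0.871 of the depth of line 199, and the MEC libraries at 0.717 to 0.790 of it. The deleted genes were lower in the lines than in MEC but not absent. Mapk8 had 5.93 FPKM in line 199, 3.12 and 1.37 in lines 233 and 336, and 23.1, 25.1 and 19.2 in MEC 1, 2 and 3. Mapk9 had 7.62 FPKM in line 199, 3.15 and 3.07 in lines 233 and 336, and 24.4, 21.5 and 22.1 in MEC 1, 2 and 3. Mapk9 passed the threshold of the comparison described next in favor of line 199, with a difference of 1.07. The values do not show which exons the fragments came from. They are RNA levels, and by immunoblot the paper found no JNK protein in tumor cells of this genotype, from adenocarcinoma and adenosquamous carcinoma.

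A gene was called higher in line 199 when its log2(FPKM + 1) was at least 1 above both other lines, a 2-fold step on that scale, and lower when it was at least 1 below both. Of the 11994 entries, 731 (6.09%) were higher and 443 (3.69%) were lower. The difference given for each gene is line 199 minus the mean of lines 233 and 336 on the log2(FPKM + 1) scale, which understates the fold of genes with low values. The median difference over all entries was 0.02. Large differences lay mostly on the higher side, where 176 entries differed by at least 3 and 50 by at least 5, against 40 and 2 on the lower side. Of the 731 higher entries, 356 had a mean under 1 FPKM over lines 233 and 336 and passed the filter only through line 199, so the share of a gene list that was called among its members that passed is in part fixed by the filter. For that reason lists were also counted over the members with a mean of at least 1 FPKM in MEC, a choice that uses no tumor line, and list medians are given over those members unless stated otherwise. Of 12360 entries with that MEC level, 660 (5.34%) were higher and 388 (3.14%) were lower, with a median difference of 0.03.

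In 686 of the 731 higher entries and 412 of the 443 lower entries, line 199 was farther from the nearer of the other lines than those were from each other. A call already asks for a distance of at least 1 from both lines, so these counts are largely fixed by the rule and are a description.

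The spread between the other lines was narrower but not small. Lines 233 and 336 differed by at least 1 in 1502 entries (12.5%), with a median absolute difference of 0.31. Line 199 differed from line 233 by at least 1 in 2102 entries (17.5%) and from line 336 in 2326 (19.4%), with median absolute differences of 0.41 and 0.44. At the edge of the threshold, Ehbp1l1 had 18, 7.82 and 8.48 FPKM in lines 199, 233 and 336 and was just inside, whereas Gng12 had 69.7, 31.1 and 34.4 and was just outside. On the lower side, Meis3 with 1.7, 5.9 and 4.41 FPKM was just inside and Pnpla6 with 4.48, 11.5 and 9.92 just outside.

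**Figure D1:**
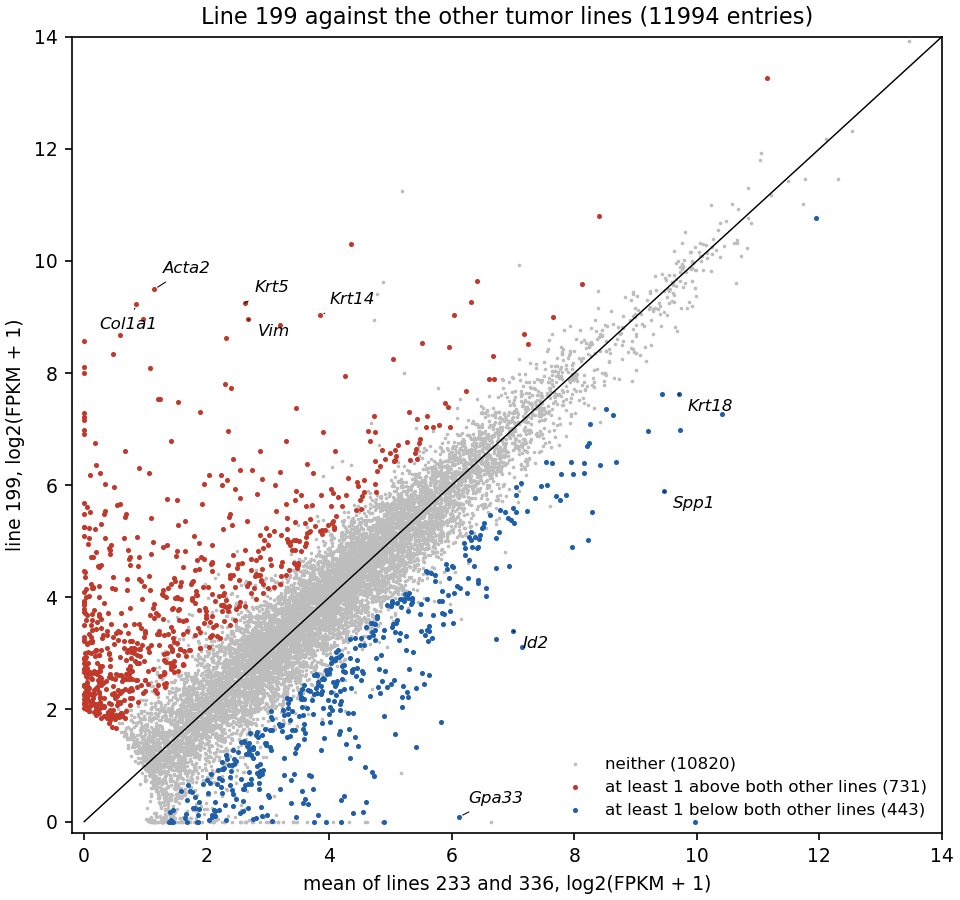
Each point is an entry, with the mean log2(FPKM + 1) of lines 233 and 336 on the horizontal axis and the log2(FPKM + 1) of line 199 on the vertical axis, and the diagonal marks equal values. More of the 731 higher entries (red) than of the 443 lower entries (blue) lie far from the diagonal, 50 against 2 at a distance of at least 5, and Col1a1, Acta2, Krt5 and Vim lie near the left edge, at low values in the other lines.

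Genes of the extracellular matrix, of contractile fibers and of the basal layer were most of the 12 largest higher differences among protein-coding genes with an entry of their own. Col1a1, which encodes a chain of type I collagen and lies at chr11:94936224-94953042 of GRCm38, came at the top with 599.7 FPKM in line 199, 1.08 and 0.566 in lines 233 and 336, and 54.2, 74.7 and 44.2 in MEC 1, 2 and 3. Its partner chain Col1a2 had 408 FPKM in line 199, 0.617 and 0.386 in lines 233 and 336, and 28.7, 39.3 and 30.3 in MEC 1, 2 and 3. Line 199 was far above the other lines for both collagens and also above every MEC library.

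Acta2, the smooth muscle actin of myoepithelial cells, at chr19:34241090-34255590, had 719 FPKM in line 199, 1.13 and 1.29 in lines 233 and 336, and 1119.9, 1452 and 736 in MEC 1, 2 and 3. Here line 199 was just below the lowest MEC library, and lines 233 and 336 were the ones that stood apart. The contractile genes Actg2 and Tagln had the same order, with 107, 0.142 and 0.129 FPKM and 184, 1.18 and 1.46 FPKM in lines 199, 233 and 336. Unlike for Col1a1, line 199 was below the lowest MEC value of both genes, which was 115 and 361 FPKM.

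The matrix proteoglycan gene Bgn had 498, 1.01 and 0.905 FPKM in lines 199, 233 and 336, the matricellular gene Postn had 321, 0.667 and 0.149, and Serpinf1, which encodes a secreted inhibitor of vessel growth, had 271, 1.02 and 1.18. The fibrillar collagen gene Col5a2 had 81.4, 0.191 and 0.104 FPKM. All 4 were detected in each MEC library, at 26.2 to 445 FPKM. Vim, the intermediate filament gene of mesenchymal cells that basal mammary cells also express, had 496 FPKM in line 199, 1.56 and 15 in lines 233 and 336, and 143, 160.5 and 86.2 in MEC 1, 2 and 3.

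**Figure D2:**
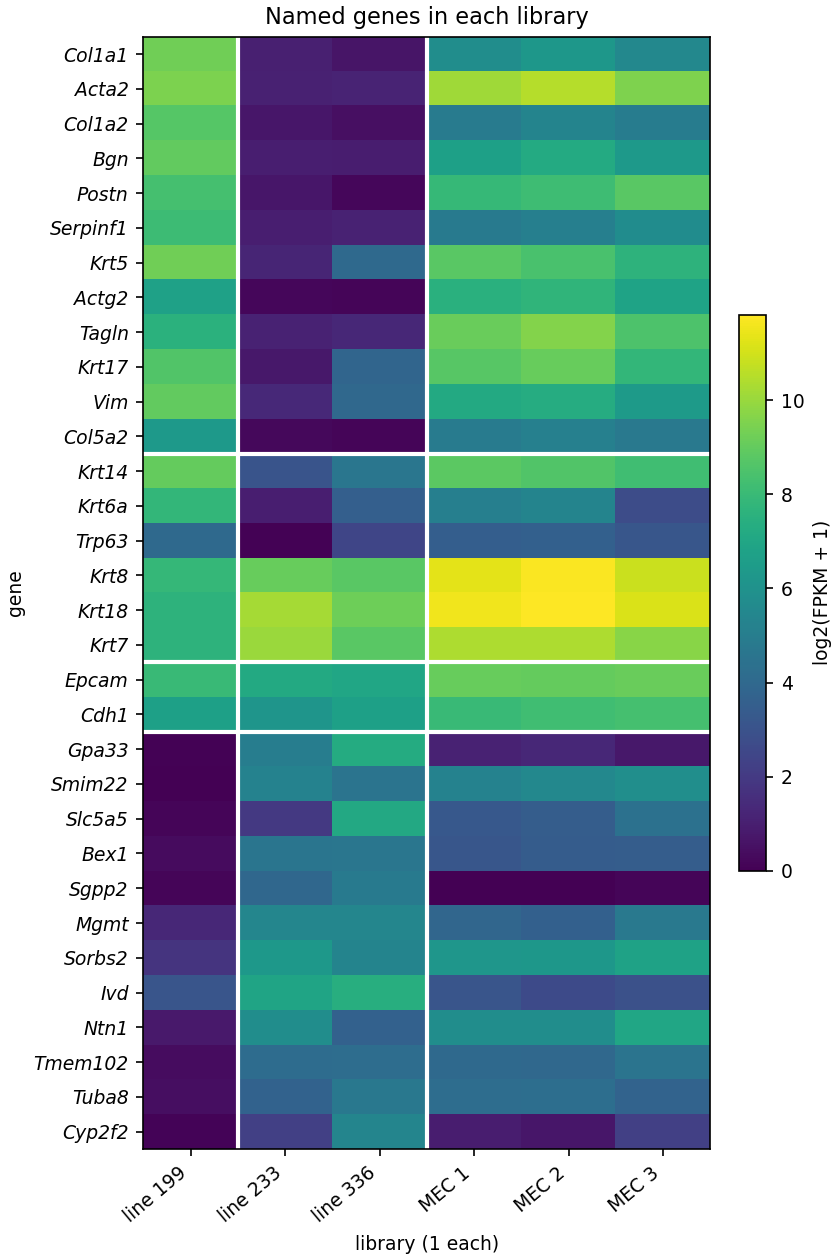
The color gives log2(FPKM + 1) of each named gene (rows) in each library (columns), for the 12 largest higher differences, selected keratins with Trp63, 2 epithelial genes and the 12 largest lower differences. For all 12 genes of the upper block the MEC mean is nearer to line 199 than to the other lines, which have 1.33 and 15.3 FPKM for Krt5, and Epcam and Cdh1 are present in all 6 libraries.

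The class of the line was checked against its markers, the basal keratins. Krt5, at chr15:101707070-101712898, had 608 FPKM in line 199, 1.33 and 15.3 in lines 233 and 336, and 435, 339 and 201 in MEC 1, 2 and 3, a difference of 6.63. Krt14, its pairing partner, at chr11:100203162-100207548, had 521 FPKM in line 199, 7.36 and 24 in lines 233 and 336, and 459.7, 393 and 289 in MEC 1, 2 and 3, a difference of 5.18. In line 199 both markers were above every MEC library, and in the other lines they were low but not absent. The line from the tumor of both classes, 233, had less of each than line 336, whose tumor was classed as adenocarcinoma only, so the levels of lines 233 and 336 did not follow the listed classes. Basal cells of the normal gland contain the same keratins, so these markers do not tell squamous from basal cells.

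Of 20 basal and stratified keratins, 9 passed the filter, of which 5 were higher (55.6%, against 6.09% of all entries) and none was lower. Among the 8 with at least 1 FPKM in MEC, 4 were higher (50%, against 5.34%), with a median difference of 3.27. Krt17 had 394 FPKM in line 199, 0.691 and 13.6 in lines 233 and 336, and 432, 537 and 228 in MEC 1, 2 and 3. Krt6a, which is induced in wounded and hyperproliferative skin, had 223 FPKM in line 199, 1.02 and 11.1 in lines 233 and 336, and 33, 38.8 and 5.7 in MEC 1, 2 and 3, and Krt6b had 22.7, 0.0495 and 0.301 FPKM in the 3 lines. Line 199 was above every MEC library for both Krt6 genes, although 43.6% of the stretches of 50 bases in the Krt6a transcript also occur in Krt6b, so that reads may have been split between them. Trp63, the gene for p63, at chr16:25683763-25892102, had 15.6 FPKM in line 199, 0.0633 and 4.47 in lines 233 and 336, and 10.6, 11.3 and 7.94 in MEC 1, 2 and 3, and line 199 again lay above line 336 and line 336 above line 233. The members that did not pass the filter included Krt1 and Krt10, the keratins of upper epidermal layers, at 0.00792 and 1.43 FPKM in line 199.

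Some genes of smooth muscle contraction that mark myoepithelial cells were higher in line 199, and others were near 0 in all 3 lines. Of 14 such genes, 7 were higher and none was lower (7 of 9 that passed the filter, against 6.09% of all entries), and 4 of the 7 passed only through line 199. All 14 had at least 1 FPKM in MEC, so over that choice the share was 50% against 5.34%, with a median difference of 1.44. Besides Acta2, Actg2 and Tagln they were Myl9, a myosin light chain gene, with 61.7, 0.28 and 0.518 FPKM in lines 199, 233 and 336, the calponin gene Cnn1 with 16.8, 0.0099 and 0.0372, the tropomyosin gene Tpm2 with 123, 10.1 and 18.9 and Lmod1 with 3.09, 0.0271 and 0.00503. For all 7 the MEC mean was nearer to line 199 than to the other lines. The 5 members that did not pass were below 1 FPKM in every line. Myh11, the smooth muscle myosin heavy chain gene, had 0.0812 FPKM in line 199, 0.0148 and 0.0382 in lines 233 and 336, and 32.7, 41.8 and 22.4 in MEC 1, 2 and 3. The oxytocin receptor gene Oxtr had 0.0125 FPKM in line 199, 0.0151 and 0.0189 in lines 233 and 336, and 5.11, 5.05 and 25.9 in MEC 1, 2 and 3.

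Many smooth muscle genes hold a CArG box, the motif bound by serum response factor, near their start. Of the 9 contractile genes that passed the filter, 7 had a promoter sequence from RefSeq (GRCm38.p6). Tagln and Actg2 had none and were not searched. The 250 bases before the start were searched for the box without mismatches, which reads the same on both strands. A match was held by 1.62% of the 27025 genes with a promoter sequence, by 1.38% of the compared genes among them and by 2.89% of the higher genes. Of the 7, only Myl9 held a match. It is shown with 10 bases on either side, the box in capitals, 161 bases before the start at chr2:156775293-156775322 on the plus strand:

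Myl9: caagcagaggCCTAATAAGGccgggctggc

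A match is a description of these letters and does not show binding, and boxes with a mismatch or outside the window were not counted.

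Genes that anchor basal cells to the basement membrane and to each other were also higher in part. Of 17 genes for basal adhesion and hemidesmosomes that passed the filter, 9 were higher (52.9%, against 6.09% of all entries) and none was lower, and 4 of the 9 passed only through line 199. Among the 17 with at least 1 FPKM in MEC, 9 were higher as well (against 5.34%), with a median difference of 1.77. Pdpn, which encodes podoplanin of basal cell surfaces, had 43.9 FPKM in line 199, 1.15 and 0.209 in lines 233 and 336, and 36.6, 32.9 and 30.2 in MEC 1, 2 and 3. Col17a1, the transmembrane collagen gene of hemidesmosomes, had 32.2 FPKM in line 199, 0.0391 and 0.549 in lines 233 and 336, and 30.6, 27.8 and 18.2 in MEC 1, 2 and 3. Cdh3, the gene for P-cadherin, had 41.8 FPKM in line 199, 0.954 and 1.34 in lines 233 and 336, and 20.3, 21.7 and 16.1 in MEC 1, 2 and 3. For these 3 genes line 199 was above every MEC library and both other lines were below 2 FPKM. The laminin chain genes were uneven, since Lamb3 was higher with 23, 5.7 and 2.9 FPKM in lines 199, 233 and 336, while Lama3 with 12, 6.64 and 0.412 was not called, line 233 being too near. The hemidesmosome integrin genes Itga6 and Itgb4 were not called either, with differences of 1.15 and 0.29.

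Among 9 desmosome genes that passed the filter, 3 were higher (33.3%, against 6.09% of all entries) and none was lower. The 3 were also the higher genes among the 10 with at least 1 FPKM in MEC (30%, against 5.34%), with a median difference of 1.07. Dsg3, the desmoglein of basal layers, had 9.0 FPKM in line 199, 0.0368 and 0.468 in lines 233 and 336, and 26.8, 22.8 and 11.7 in MEC 1, 2 and 3. Desmoplakin (Dsp), the desmosomal plaque protein that binds keratin filaments, had 39.4 FPKM in line 199, 13.2 and 7.33 in lines 233 and 336, and 36.4, 34.1 and 33.3 in MEC 1, 2 and 3. Dsg2 had 3.93 FPKM in line 199, 0.694 and 1.25 in lines 233 and 336, and 28.9, 28.1 and 30.6 in MEC 1, 2 and 3, so that line 199 exceeded the other lines and was still below every MEC library. Dsg1a and Dsg1b, the desmogleins of upper epidermis, were at 0.0386 and 0.164 FPKM in line 199.

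Cornification genes were called in both directions. Of 64 genes found for the cornified envelope and squamous differentiation, 33 passed the filter, 7 were higher (21.2%, against 6.09% of all entries) and 4 were lower (12.1%, against 3.69%), and 4 of the 7 passed only through line 199. Among the 24 with at least 1 FPKM in MEC, 2 were higher (8.33%, against 5.34%) and 3 were lower (12.5%, against 3.14%), with a median difference of 0.17. The higher genes were led by the small proline-rich genes Sprr1b with 16.5, 0.0636 and 1.47 FPKM in lines 199, 233 and 336 and Sprr2h with 15.4, 0.0348 and 4.73, and by Dmkn, a secreted protein of differentiating epidermis, with 24.9, 2.24 and 3.63. The lower genes included Crct1 with 2.05, 17.7 and 16.7 FPKM and the kallikrein genes Klk8 with 4.5, 49.3 and 19.4 and Klk6 with 0.0907, 3.0 and 3.55. Sprr1a had 7.74 FPKM in line 199, 6.69 and 9.24 in lines 233 and 336, and 117, 297 and 215 in MEC 1, 2 and 3, alike in the 3 lines and far below MEC. Ivl, the gene for involucrin, had 0.708 FPKM in line 199, 0.237 and 0.469 in lines 233 and 336, and 6.28, 12.8 and 3.37 in MEC 1, 2 and 3 and did not pass the filter. Flg, the filaggrin gene, was at 0.0315 FPKM in line 199 and at 0 in both other lines, and Lor, the loricrin gene, had 0.703, 1.71 and 1.17 FPKM.

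Mesenchymal genes were higher in line 199, and the epithelial adhesion genes Epcam and Cdh1 were not lower. Of 23 genes linked with epithelial-mesenchymal transition that passed the filter, 18 were higher (78.3%, against 6.09% of all entries) and none was lower, and 10 of the 18 passed only through line 199. All 24 genes with an entry had at least 1 FPKM in MEC, and 19 of them were higher (79.2%, against 5.34%), with a median difference of 3.00. Fbn1, the fibrillin gene, had 38.8 FPKM in line 199, 0.0608 and 0.379 in lines 233 and 336, and 8.43, 9.18 and 6.81 in MEC 1, 2 and 3. Mmp2, a matrix metalloproteinase gene, had 26.4 FPKM in line 199, 0.28 and 0.416 in lines 233 and 336, and 7.25, 7.19 and 12.7 in MEC 1, 2 and 3. The transcription factor genes Snai2 with 16.9, 0.283 and 0.467 FPKM, Twist1 with 13.7, 0.0193 and 3.75, Zeb1 with 5.89, 0.095 and 0.356 and Prrx1 with 15.4, 0.0415 and 0.0719 in lines 199, 233 and 336 were among the 18, whereas Snai1 with 8.42, 4.05 and 7.8 was not. The cadherin gene Cdh2 had 19.2, 1.03 and 0.302 FPKM. For 11 of the 18 genes line 199 was also at least 1 above every MEC library. Beside these, Epcam had 252 FPKM in line 199, 144 and 128 in lines 233 and 336, and 539, 519 and 549 in MEC 1, 2 and 3. Cdh1, the gene for E-cadherin, had 102 FPKM in line 199, 71.1 and 104 in lines 233 and 336, and 259, 294 and 319 in MEC 1, 2 and 3. Line 199 was above both other lines for Epcam and between them for Cdh1.

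Genes of fibroblasts and stromal matrix were higher alongside the mesenchymal genes. Of 18 that passed the filter, 15 were higher (83.3%, against 6.09% of all entries) and none was lower, but 13 of the 15 passed only through line 199. Among the 19 with at least 1 FPKM in MEC, 15 were higher (78.9%, against 5.34%), with a median difference of 3.34. The 24 listed genes together came to 2059 FPKM in line 199, against 338 and 117 in the other lines and 586 to 742 in MEC. They include the fibrillar collagens given above, Col3a1 with 71.5, 0.0603 and 0.0738 FPKM, Thy1 with 11.1, 0.0287 and 0.0133 and the growth factor receptor gene Pdgfrb with 19, 0.0168 and 2.4. The members of the list that did not pass the filter were low in the same library: Pdgfra was at 1.31 FPKM, Dcn at 0.311, Fap at 0.124, Lum at 0.0264, Mfap4 at 0.0263 and Dpt at 0.012 FPKM in line 199, and none was above 0.622 FPKM in the other lines. Pdgfra in line 199 was still above every MEC library, which had 0.686, 0.769 and 0.949 FPKM. In libraries of whole cultures, more cells of a type and more RNA per cell cannot be told apart.

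Most markers of other cell types gave little signal in the lines, with some exceptions. Ptprc, the pan-leukocyte gene, had 0.00793, 0.0146 and 0 FPKM in lines 199, 233 and 336, and Cd68 alone of 20 leukocyte genes passed the filter, with 0.771, 2.73 and 23.5 FPKM. Cd68 was called lower, which is 5% of the 20 genes with no filter, against 1.18% of all entries. The endothelial gene Pecam1 had 0.0991, 0.129 and 0.249 FPKM, while line 336 had 4.56 FPKM of Plvap and 1.58 of Emcn, which were not called. Flt1, which encodes a receptor for vascular endothelial growth factor, was higher, with 6.87, 0.263 and 0.108 FPKM. It was the only called gene of 13 endothelial genes (7.69% with no filter, against 2.28% of all entries). The fat cell gene Adipoq was at 0.0475 FPKM in line 199. Of 10 adipocyte genes 2 were lower (20% with no filter, against 1.18% of all entries), Pparg with 0.573, 7.04 and 3.74 FPKM and Lipe with 1.31, 4.74 and 6.21.

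Most simple keratins and some junction genes were lower in line 199. Of 4 simple keratins that passed the filter, 3 were lower (75%, against 3.69% of all entries), and over the 5 with at least 1 FPKM in MEC the median difference was -1.35. Krt18 had 197 FPKM in line 199, 1181 and 586 in lines 233 and 336, and 3041, 3593 and 2240.1 in MEC 1, 2 and 3. Krt7, a keratin of glandular epithelia, had 196 FPKM in line 199, 1054 and 448 in lines 233 and 336, and 1318, 1309 and 844 in MEC 1, 2 and 3. Krt19 had 7.93 FPKM in line 199, 26.8 and 17.6 in lines 233 and 336, and 804, 1057 and 356 in MEC 1, 2 and 3, so that line 199 was the lowest library for all 3 genes. Krt8, the partner of KRT18, had 230.1 FPKM in line 199, 539 and 447 in lines 233 and 336, and 2547, 3406 and 1844 in MEC 1, 2 and 3, and missed the threshold narrowly with a difference of -1.09. For Krt8, Krt18 and Krt19 every line was below every MEC library, while for Krt7 line 233 lay within the MEC range.

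Of 24 genes for epithelial junctions and polarity that passed the filter, 5 were lower (20.8%, against 3.69% of all entries) and none was higher. The median difference over the 25 with at least 1 FPKM in MEC was -0.65. Prss8, a membrane serine protease gene, had 5.47 FPKM in line 199, 25 and 33.8 in lines 233 and 336, and 12.8, 11.1 and 17.8 in MEC 1, 2 and 3. The tight junction genes Cldn7 with 53.4, 158 and 171 FPKM and Cldn3 with 103, 242 and 357 in lines 199, 233 and 336 followed, then Marveld3 with 3.82, 15 and 10.4 and the polarity gene Crb3 with 13.9, 30.7 and 36.8. Genes that repress the mesenchymal state through splicing or transcription were not called, with 53.4, 41.7 and 45.9 FPKM for Esrp1 and 15, 22.5 and 16.4 for Grhl2.

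Luminal identity genes did not go one way. Of 20 that passed the filter, 2 were higher (10%, against 6.09% of all entries) and 4 were lower (20%, against 3.69%), and the 2 higher genes passed only through line 199. Among the 28 with at least 1 FPKM in MEC, 2 were higher (7.14%, against 5.34%) and 4 were lower (14.3%, against 3.14%). The median difference over these 28 was -0.05. The lower genes were led by Spp1, the osteopontin gene, with 58.3 FPKM in line 199, 734 and 675 in lines 233 and 336, and 154, 194 and 101 in MEC 1, 2 and 3. Areg, the gene for amphiregulin, had 22.7 FPKM in line 199, 172 and 86 in lines 233 and 336, and 39.5, 46.7 and 13.9 in MEC 1, 2 and 3, and Ltf, the lactoferrin gene, had 4.16, 16.4 and 19.6 FPKM in lines 199, 233 and 336 and 245, 381 and 107 in MEC. The higher genes were Aldh1a3, which encodes a retinoic acid enzyme of luminal progenitors, and the transcription factor gene Tbx3. Aldh1a3 had 4.92 FPKM in line 199, 0.309 and 1.13 in lines 233 and 336, and 137, 224 and 72.8 in MEC 1, 2 and 3. Tbx3 had 4.12 FPKM in line 199, 0.0513 and 1.03 in lines 233 and 336, and 12.3, 16.4 and 12.9 in MEC 1, 2 and 3. For both, all 3 lines were below every MEC library. Esr1, the estrogen receptor gene, had 1.56, 3.56 and 2.91 FPKM in the lines, Pgr was at 0 in all of them and at 8.06, 8.54 and 10.8 in MEC, and Elf5, Kit and Csn3, which mark luminal progenitors and milk production, were at 0.0199, 0 and 0.0209 FPKM in line 199 and at most 0.461 FPKM in the others.

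Among protein-coding genes with an entry of their own, the 12 largest lower differences ran from -6.04 to -3.70 and were smaller than the higher ones. Over all compared entries of any type, the differences ran from -9.98 to 8.58. Gpa33, which encodes a surface antigen of glandular epithelium, came first with 0.0597 FPKM in line 199, 30.6 and 152 in lines 233 and 336, and 1.17, 1.5 and 0.685 in MEC 1, 2 and 3. Smim22 was listed at 0 FPKM in line 199, 36.4 and 22.6 in lines 233 and 336, and 37.3, 44.2 and 55.5 in MEC 1, 2 and 3. Slc5a5, the iodide transporter gene, had 0.128 FPKM in line 199, 2.88 and 140.4 in lines 233 and 336, and 8.58, 10.4 and 20.4 in MEC 1, 2 and 3. Bex1 had 0.276, 22.9 and 23.5 FPKM in lines 199, 233 and 336 and 7.95, 9.79 and 10.2 in MEC. Slc5a5 owes its rank to line 336, since line 233 had only 2.88 FPKM.

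Mgmt, which encodes the enzyme that removes alkyl groups from guanine in DNA, had 1.51 FPKM in line 199, 42.3 and 41.4 in lines 233 and 336, and 14, 11.2 and 26.4 in MEC 1, 2 and 3, so that both other lines were above MEC and line 199 below it. Sgpp2, a sphingosine phosphate phosphatase gene, had 0.115, 14.2 and 27.9 FPKM in lines 199, 233 and 336, the cytoskeletal adaptor gene Sorbs2 had 2.43, 78.9 and 39.1, and Ivd, a gene of leucine breakdown, had 7.67, 119.6 and 166. For Ivd line 199 was at the level of MEC (7.59, 5.33 and 6.54 FPKM) and the other lines were above it. The guidance cue gene Ntn1 had 0.756, 54.7 and 11.8 FPKM, Tmem102 had 0.307, 17.1 and 17.6, the tubulin gene Tuba8 had 0.37, 12.3 and 25.9 and the cytochrome gene Cyp2f2 had 0.0817, 3.77 and 40.5. The MEC mean was nearer to line 199 for 4 of these 12 genes, and for the other 8 line 199 was at least 1 below every MEC library.

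Signaling genes were called in small numbers in each pathway. In the NOTCH pathway 3 of 13 genes that passed the filter were higher (23.1%, against 6.09% of all entries) and none was lower. The ligand gene Jag1 had 29.6 FPKM in line 199, 1.96 and 1.22 in lines 233 and 336, and 70.5, 74.5 and 45.3 in MEC 1, 2 and 3. The others were the ligand gene Dll1 with 13.4, 5.93 and 3.82 FPKM in lines 199, 233 and 336, and the coactivator gene Maml2 with 8.13, 2.7 and 1.2. The receptor genes Notch1 and Notch2 and the target Hes1 had differences of 0.55, 0.52 and 1.13 and were not called.

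In the WNT pathway 2 of 31 genes that passed the filter were higher, a share of 6.45% that is near the 6.09% of all entries, and 4 were lower (12.9%, against 3.69%). Over the 33 with at least 1 FPKM in MEC the median difference was 0.09. The lower genes included Notum and Axin2, feedback inhibitors that are themselves targets of WNT signaling. Notum had 0.255 FPKM in line 199, 13 and 9.18 in lines 233 and 336, and 0, 0 and 0.0228 in MEC 1, 2 and 3. Axin2 had 1.79 FPKM in line 199, 10.7 and 11.3 in lines 233 and 336, and 0.55, 0.699 and 0.935 in MEC 1, 2 and 3. The ligand genes Wnt10a and Wnt7b had 26.1, 98.2 and 55.1 and 47.1, 140.3 and 115 FPKM in the lines. In MEC 1, 2 and 3 Wnt10a had 2.85, 3.77 and 1.34 FPKM and Wnt7b had 47.1, 47.4 and 64.4. For Notum and Axin2 all 3 lines were above every MEC library, and line 199 was the nearest to it. The higher genes were Dkk3 with 4.61, 0.0615 and 0 FPKM and the receptor gene Fzd7 with 17.5, 1.92 and 6.76.

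In the EGF family 3 of 15 genes that passed the filter were lower (20%, against 3.69% of all entries) and none was higher, and besides Areg these were a ligand and a receptor. Ereg, the gene for epiregulin, had 0.599 FPKM in line 199, 10.9 and 2.63 in lines 233 and 336, and 2.65, 3.44 and 0.568 in MEC 1, 2 and 3. The receptor gene Erbb3 had 5.35 FPKM in line 199, 16 and 13.4 in lines 233 and 336, and 16.4, 14.7 and 21.1 in MEC 1, 2 and 3. Egfr itself had 12.8, 19.3 and 0.936 FPKM in lines 199, 233 and 336 and Erbb2 had 14.8, 15.2 and 19.6, and neither was called.

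Of 31 genes for TGF-beta and BMP that passed the filter, 4 were higher (12.9%, against 6.09% of all entries) and 3 were lower (9.68%, against 3.69%). The higher genes included the ligand gene Tgfb1 with 27.6, 7.46 and 12.1 FPKM in lines 199, 233 and 336 and the receptor gene Acvr1 with 23.4, 10.9 and 9.59. The lower genes were on the BMP side. Id2, a BMP target that blocks differentiation factors, had 9.56 FPKM in line 199, 178 and 90.4 in lines 233 and 336, and 19.3, 19.7 and 36.1 in MEC 1, 2 and 3. The ligand gene Bmp4 had 3.96 FPKM in line 199, 35.3 and 40.1 in lines 233 and 336, and 0.448, 0.798 and 0.211 in MEC 1, 2 and 3. Bmp7 had 0.756 FPKM in line 199, 15.7 and 9.09 in lines 233 and 336, and 5.4, 5.32 and 4.14 in MEC 1, 2 and 3. For Bmp4 even line 199 exceeded MEC, and for Bmp7 line 199 lay below it.

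Of 24 chemokine and cytokine genes that passed the filter, 12 were higher in line 199 (50%, against 6.09% of all entries) and 1 was lower (4.17%, against 3.69%), and 4 of the 12 passed only through line 199. Among the 26 with at least 1 FPKM in MEC, 10 were higher (38.5%, against 5.34%), with a median difference of 0.90. Il1a, the gene for interleukin 1 alpha, had 462 FPKM in line 199, 18.8 and 3.24 in lines 233 and 336, and 2.67, 1.65 and 1.54 in MEC 1, 2 and 3. The monocyte attractant gene Ccl7 had 45.7 FPKM in line 199, 0.321 and 0.214 in lines 233 and 336, and 1.91, 1.59 and 0.50 in MEC 1, 2 and 3. Ccl2, of the same kind, had 49.5 FPKM in line 199, 0.214 and 0.873 in lines 233 and 336, and 2.5, 3.76 and 1.09 in MEC 1, 2 and 3. All 3 were at low levels in MEC as well. The neutrophil attractant genes Cxcl1 and Cxcl3 had 354, 46.3 and 80.9 and 87.7, 1.96 and 8.79 FPKM in lines 199, 233 and 336, while Cxcl5 with 977, 34.5 and 522 was not called, line 336 being too near. The lower gene was Il23a with 5.5, 17.4 and 22.1 FPKM. In 8 of the 12 higher genes line 199 was at least 1 above every MEC library, and among the contractile genes this held for 0 of 7.

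Interferon response genes had a median difference of -1.16 over the 31 that passed the filter, which rested on line 233. The median was -2.21 against line 233 and 0.12 against line 336, and 4 of the 31 were lower than both (12.9%, against 3.69% of all entries). Irf7, the transcription factor gene that amplifies interferon, had 1.94 FPKM in line 199, 104 and 9.73 in lines 233 and 336, and 76.6, 85.8 and 131 in MEC 1, 2 and 3. Usp18, a brake on the interferon receptor, had 1.2 FPKM in line 199, 72 and 4.66 in lines 233 and 336, and 54.8, 61.3 and 90.8 in MEC 1, 2 and 3. The others were the antiviral tether gene Bst2 with 31.5, 622 and 141 FPKM in lines 199, 233 and 336, and Oas1a with 0.498, 33.8 and 4.06. Psmb8, a subunit of the immunoproteasome, was higher with 15.8, 4.37 and 2.38 FPKM, against 39.8, 43.7 and 57.4 in MEC, and was the only called gene among the 14 for MHC class I that passed the filter (7.14%, against 6.09%), whose median was -1.20 against line 233 and 0.17 against line 336. For Irf7 and Usp18 line 233 was within the MEC range, and lines 199 and 336 were below it.

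Genes for aldehyde and glutathione metabolism were called in both directions. Of 25 that passed the filter, 9 were higher (36%, against 6.09% of all entries) and 2 were lower (8%, against 3.69%), and among the 23 with at least 1 FPKM in MEC, 8 were higher (34.8%, against 5.34%). Gpx2, a glutathione peroxidase gene, had 109.7 FPKM in line 199, 1.26 and 2.18 in lines 233 and 336, and 44.4, 39.8 and 18.1 in MEC 1, 2 and 3. Aldh1l2, a mitochondrial folate enzyme gene, had 25.3 FPKM in line 199, 1.56 and 0.337 in lines 233 and 336, and 7.44, 3.92 and 4.01 in MEC 1, 2 and 3. The glutathione transferase gene Gsta3 had 40.1, 3.66 and 1.12 FPKM in lines 199, 233 and 336. Aldh2 and Aldh3a1 were lower, with 84.2, 394 and 427 and 56.1, 402 and 133 FPKM. Nqo1 and the cystine transporter gene Slc7a11 were among the higher genes with 19.4, 2.36 and 7.03 and 17.1, 2.39 and 3.85 FPKM.

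All 31 proliferation genes with an entry passed the filter and had differences above 0, from 0.01 to 1.25 with a median of 0.49. Only 2 of them were called, a share of 6.45% that is near the 6.09% of all entries. Bub1b, a spindle checkpoint gene, had 52.5 FPKM in line 199, 18.8 and 24.6 in lines 233 and 336, and 15.8, 16.4 and 7.71 in MEC 1, 2 and 3. Ccne2, the gene for cyclin E2, had 21.4 FPKM in line 199, 9.08 and 9.27 in lines 233 and 336, and 5.95, 7.48 and 1.62 in MEC 1, 2 and 3. The marker gene Mki67 had 31.8, 26.8 and 25 FPKM in the 3 lines, a difference of 0.28. Proliferation genes are expressed together in dividing cells, so the shared sign is not 31 separate observations. In the JNK cascade and AP1, Mapk9 was the 1 called gene of 24 that passed the filter (4.17%, against 6.09% of all entries), with a median difference of 0.08 and 10.5, 8.91 and 8.15 FPKM for Jun and 3.83, 8.02 and 3.5 for Fos in the lines.

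Transcription factors of ectodermal lineages were called in both directions. Of 25 that passed the filter, 6 were higher (24%, against 6.09% of all entries) and 2 were lower (8%, against 3.69%), and 5 of the 6 passed only through line 199. Among the 20 with at least 1 FPKM in MEC, 3 were higher (15%, against 5.34%) and 1 was lower (5%, against 3.14%). Sox11, a developmental factor gene, had 22.2 FPKM in line 199, 0.349 and 0.0445 in lines 233 and 336, and 2.55, 2.13 and 2.87 in MEC 1, 2 and 3. Pitx1, a hindlimb and oral ectoderm factor gene, had 22.7, 0.936 and 0.758 FPKM in lines 199, 233 and 336 and was listed at 0 in every MEC library. Dlx2 had 4.67, 0.45 and 0 FPKM in lines 199, 233 and 336. The homeobox genes Msx2 and Pax6 were lower, with 1.18, 7.05 and 10.5 and 0.219, 9.78 and 1.68 FPKM. Sox10, a factor of mammary progenitors, was at 0 in line 199 and at most 0.0941 FPKM in the other lines.

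**Figure D3:**
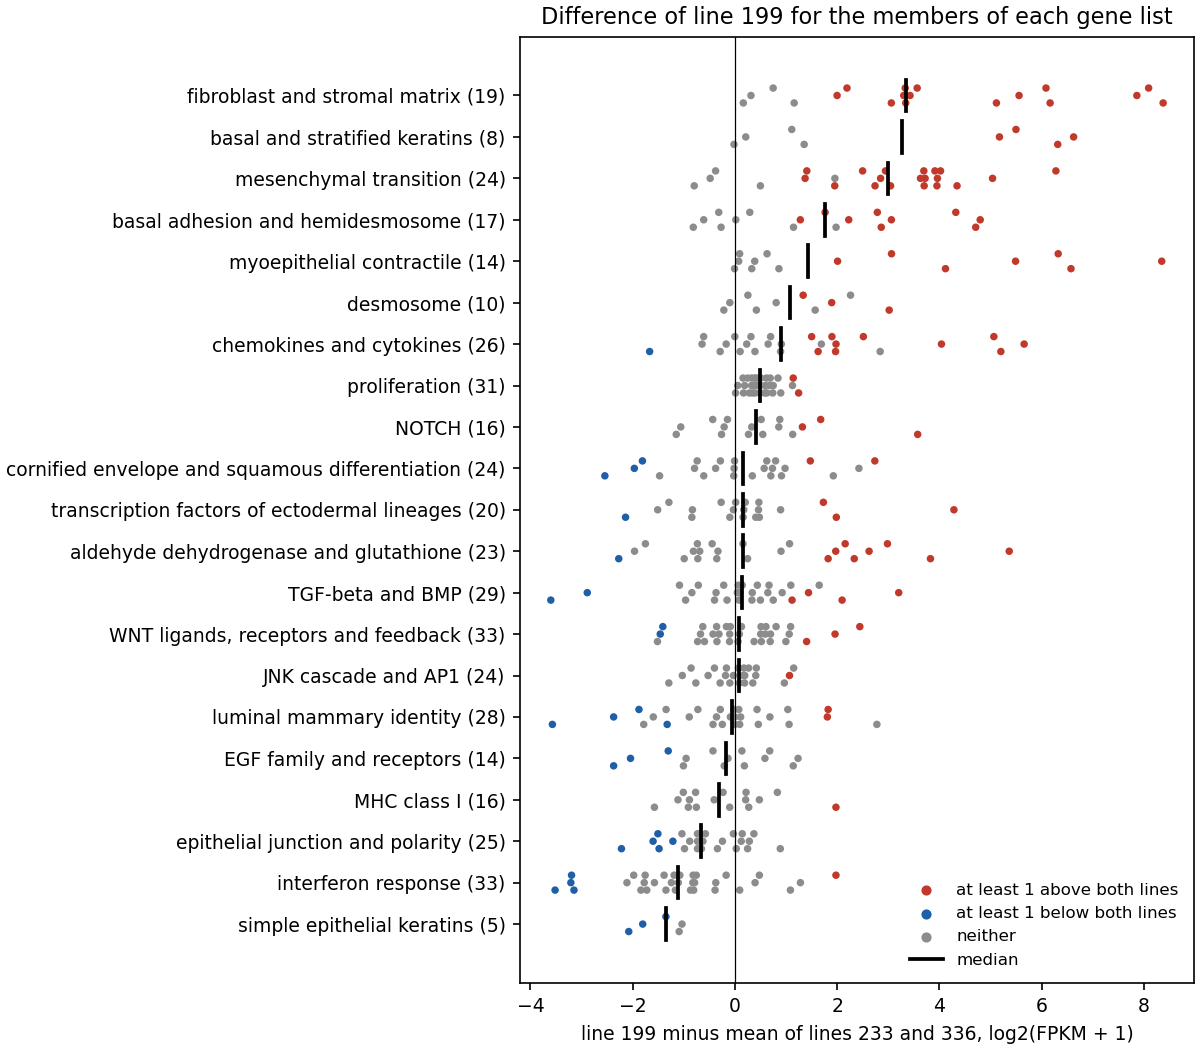
Each point is a gene with a mean of at least 1 FPKM in MEC from the list named at the left (their number in parentheses), placed by its difference, line 199 minus the mean of lines 233 and 336 in log2(FPKM + 1), and black bars are medians. The fibroblast and basal keratin lists have medians of 3.34 and 3.27, simple keratins lie lowest at -1.35, and lists such as JNK cascade and AP1 straddle 0.

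The MEC libraries show on which side of a difference the primary cells lay. Among the 731 higher entries the MEC mean was nearer to line 199 in 414 (56.6%), compared with 44.0% of all entries. The mean of lines 233 and 336 was at least 1 below every MEC library in 371 of them (50.8%, compared with 7.48% of all entries), and line 199 was at least 1 above every MEC library in 272 (37.2%, compared with 5.63%). Since the higher entries were selected for a high value in line 199 and low values in the other lines, both shares are in part fixed by that choice and are a description.

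Named genes show both patterns. All 12 of the largest higher genes had the MEC mean nearer to line 199, and 6 of them, Col1a1, Col1a2, Bgn, Serpinf1, Vim and Col5a2, were also at least 1 above every MEC library. All 9 called basal adhesion genes and all 7 called contractile genes were nearer to MEC in line 199, against 3 of 12 called chemokines and cytokines and 0 of 7 called cornification genes. Among the 443 lower entries the MEC mean was nearer to line 199 in 210 (47.4%), and the mean of the other lines was at least 1 above every MEC library in 150 (33.9%), as for Ivd and Notum.

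**Figure D4:**
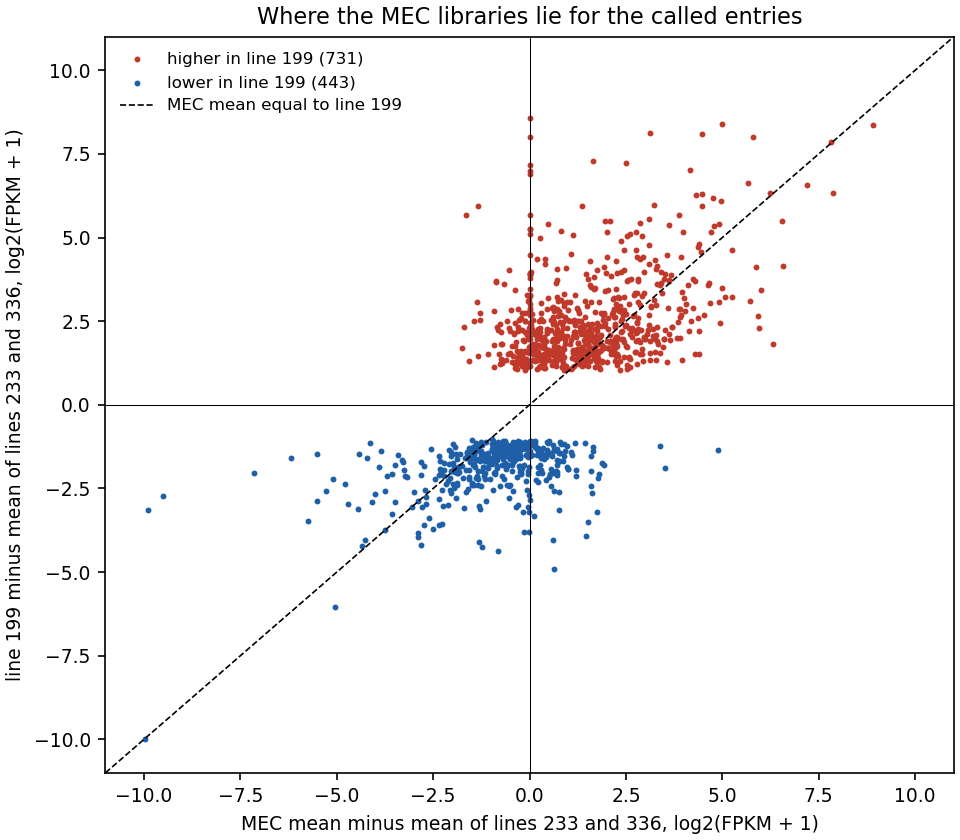
Each point is a called entry, with the MEC mean minus the mean of lines 233 and 336 on the horizontal axis and line 199 minus that mean on the vertical axis, both in log2(FPKM + 1). Points on the dashed diagonal have the same value in line 199 and MEC, points at 0 on the horizontal axis have MEC values equal to the other lines, and 414 of the 731 higher entries (red) have MEC nearer to line 199.

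The called genes were spread over the chromosomes. Among 10177 protein-coding entries placed by symbol in GENCODE M21, 6.19% were higher and 3.77% lower, and the higher share of a chromosome ran from 3.19% on chromosome 17 to 9.34% on chromosome 18. The median difference was lowest on chromosome 14, at -0.32 over 344 entries, and highest on chromosomes 2 and 3, at 0.23 and 0.22 over 815 and 509 entries. Against the MEC mean, the median of chromosome 14 was -0.49 in line 199, with -0.38 in line 336 and 0.01 in line 233. On chromosome 2 line 199 had 0.30, above 0.07 and 0.14 in lines 233 and 336. The copy number of the lines was not analysed here. Bmp4 and Mapk8 are both on chromosome 14 and went opposite ways, with differences of -2.96 and 1.15.

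**Figure D5:**
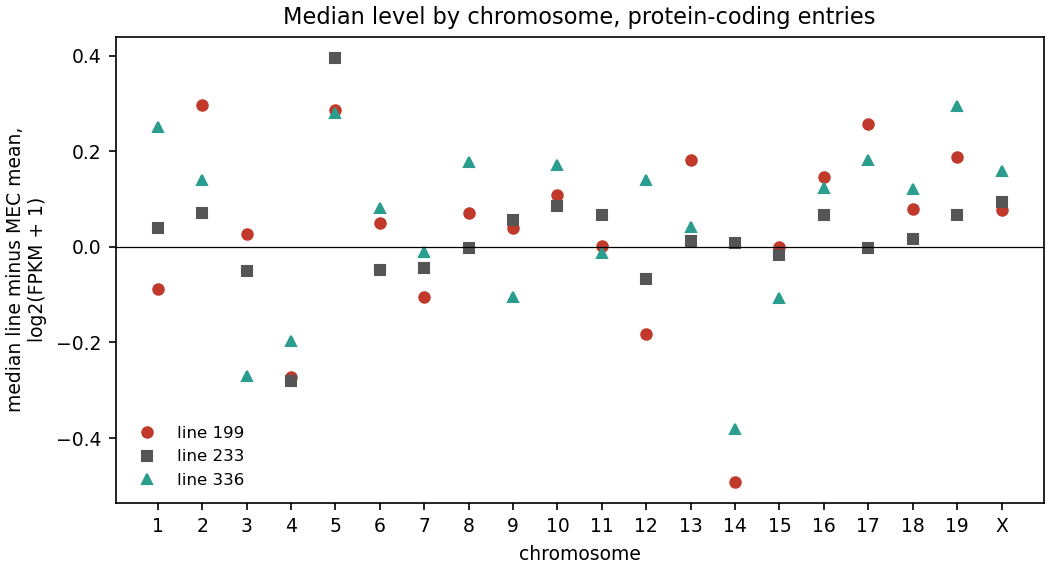
For each chromosome the median over protein-coding entries of line minus MEC mean in log2(FPKM + 1) is shown for lines 199 (circles), 233 (squares) and 336 (triangles). Line 199 is lowest on chromosome 14 at -0.49 with line 336 at -0.38, and it is above the other lines on chromosomes such as 2, 3, 13 and 17.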

How the data were processed

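RNA-seq of 6 libraries was analysed from the table of FPKM values that the authors deposited. Per the labels and the methods of the study, reads were aligned to GRCm38 with Bowtie2 and TopHat2 2.0.14 and quantified with Cufflinks 2.2.1. The authors normalized FPKM for transcript length and library size. FPKM holds no counts, so no count test, interval or floor was computed, and genes expressed at low levels are the least precise.

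Values were transformed to log2(FPKM + 1) in Python 3.11.15 with pandas 2.3.3 and numpy 2.4.6, and entries with a mean of at least 1 over the 3 lines were kept. The calls and differences are given in the report. The comparison was tested on simulated data. Of the 37755 entries, 2 held no values and 466 joined several symbols, and list members on joined entries were left out. Symbols were matched to GENCODE M21 (11067 of 11994 entries). Gene lists were written by hand from general knowledge, and 4 members were found under older symbols.

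Named were the 12 largest differences in each direction (protein-coding genes with their own entry, without predicted genes), up to 3 called members of each list and direction, and a fixed set of lineage genes. Some genes that this rule names are not reported here. Other list members were named after their values were seen. Members and lists were chosen with earlier results of these data known. With 1 library against 2, no test was made. Alternatives were other pseudocounts, filters, scalings and thresholds, and each other line left out. Limiting the counts to protein-coding entries, a filter at a mean of 1 FPKM over MEC and leaving out each MEC library were chosen after seeing the data. Columns of the authors' own comparisons were not in the table. The reads of overlapping genes on opposite strands cannot be told apart here. Among the named genes this touches Tagln (55.0% of its exon bases overlap another gene), Notum (29.0%), Klk8 (27.9%), Krt6a (20.7%), Fbn1 (20.3%) and, to a smaller share, others such as Dll1 and Il1a. Spp1 overlaps a gene on the same strand (18.75%).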

Additional observations from a re-analysis of the deposited data

How the results depend on the processing

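The number of higher and lower entries depended on the settings, and the direction of the named genes that were called did not. Cdh1 and Sprr1a, which were not called, lay between the other lines. The sign of their differences depended on which of lines 233 and 336 was left out. The 731 higher entries became 381 with a filter at a mean of 5 FPKM and 315 with a threshold of 2 on the log2 scale, and 1135 to 1258 with line 336 or line 233 left out. The 443 lower entries became 671 with a pseudocount of 0.1, 79 with a threshold of 2 and 1019 to 1124 with line 336 or line 233 left out. Leaving out a line lowers the demand on each entry from 2 comparisons to 1, which raises the counts by construction. No filter, a filter on MEC, quantile normalization, upper-quartile scaling and protein-coding entries alone gave 630 to 859 higher and 384 to 507 lower entries. Leaving out a MEC library gave 400 to 433 higher entries nearer to line 199, against 414. Differences of named genes moved by less than the spread between lines 233 and 336 in 709 of 774 recomputed values, and no called gene reversed. For many values this was fixed in advance. Leaving out a line moves a difference by less than that spread, and a filter leaves it unchanged. With a pseudocount of 0.1, which can move it further, 52 differences moved by more than the spread and 47 did not. List medians over members that passed moved by less than the spread in 163 of 222, and 2 were counted as reversed. These were the cornified envelope list at -0.0058 with a filter at 5 FPKM, and the leukocyte list at 0.0058 with no filter, where genes at or near 0 entered. Changes of sign within the spread were not counted, and the interferon median had opposite signs against lines 233 and 336 (-2.21 and 0.12). The cause of the other shifts was not tested. No paired analysis was possible because the lines and MEC share no replicate numbers.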

Other observations

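Several gene families that stand out in line 199 were noticed after their values were seen, so their counts are a description of these libraries only. HOX genes, which set position along the body axis, were at higher levels in line 199. Of 32 HOX genes with an entry of their own, 10 passed the filter, and the 9 of these that were higher passed only through line 199, so that count is fixed by the filter. With no filter 12 of the 32 were higher (37.5%, against 2.28% of all entries), and 2 of the 4 with a mean of at least 1 FPKM in MEC were higher (against 5.34%). Hoxd8 had 32.3 FPKM in line 199, 0.037 and 0.0863 in lines 233 and 336, and 0.316, 0.594 and 0.0134 in MEC 1, 2 and 3. Hoxb9 had 19.6 FPKM in line 199, 0.0099 and 0.0186 in lines 233 and 336, and 0.364, 0.531 and 0.127 in MEC 1, 2 and 3. Hoxd13, which patterns the distal limb and genital tubercle, had 13.9 FPKM in line 199 and was listed at 0 in all 5 other libraries. Genes of the b, c and d clusters were all among the 9, with Hoxc6 at 7.19, 0.102 and 0 and Hoxc8 at 6.44, 0.0102 and 0.010 FPKM in lines 199, 233 and 336. Hoxb2 differed from the others, at 3.02 FPKM in line 199 and 13.5, 12.9 and 16.4 in MEC. In 8 of the 9, line 199 was at least 1 above every MEC library.

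Some targets of the tumor suppressor p53 were lower in line 199. Of 35 commonly used targets, 14 were lower (40%, against 3.69% of all entries) and 2 were higher (5.71%, against 6.09%). Ccng1, which encodes cyclin G1, had 44.8 FPKM in line 199, 292 and 334 in lines 233 and 336, and 71.8, 71.8 and 108 in MEC 1, 2 and 3. Cdkn1a, the gene for the cell cycle inhibitor p21, had 73.8 FPKM in line 199, 268 and 304 in lines 233 and 336, and 85.2, 97.6 and 88.6 in MEC 1, 2 and 3. Mdm2, the gene for the ligase that degrades p53, had 55.1 FPKM in line 199, 276 and 157 in lines 233 and 336, and 51.9, 58 and 61.6 in MEC 1, 2 and 3. Trp53inp1 with 4.37, 34.1 and 37.3 FPKM, Psrc1 with 15.2, 106 and 82.7 and the cell death genes Bax with 63.4, 179 and 195, Pmaip1 with 28.9, 81.1 and 90.4 and Eda2r with 3.92, 37 and 20.4 in lines 199, 233 and 336 were also lower. For 11 of the 14 the MEC mean was nearer to line 199. Trp53 itself had 87.4, 134 and 89.4 FPKM, a difference of -0.32. Other targets in the list, such as Zmat3, Sesn2 and Ddb2, had differences of -0.39, -0.46 and 0.27 and were not called. Whether p53 is mutated in line 199 was not analysed here.

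Genes of the placental prolactin family were high in lines 233 and 336 and lower, but above MEC, in line 199. Prl2c3, a proliferin gene, had 154 FPKM in line 199, 1637 and 1139 in lines 233 and 336, and 0.158, 0.733 and 0.46 in MEC 1, 2 and 3. Prl2c2 had 126 FPKM in line 199, 1247 and 575 in lines 233 and 336, and 0.23, 0 and 0.272 in MEC 1, 2 and 3. They share 78.6% of the stretches of 50 bases of the Prl2c3 transcript, so the split of reads between them is uncertain. Prl7d1 had 5.25, 95.4 and 20.9 FPKM in the lines and 0 in every MEC library. Of 25 members 5 passed the filter, and 4 of them were lower in line 199 (80%, against 3.69% of all entries).

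Collagen chains went beyond the fibrillar ones named in the report. Of 44 chains 19 passed the filter, 15 of which were higher (78.9%, against 6.09% of all entries) and 1 lower (5.26%, against 3.69%), but 11 of the 15 passed only through line 199. Among the 24 with a mean of at least 1 FPKM in MEC, 16 were higher (66.7%, against 5.34%) and 1 was lower (4.17%, against 3.14%). The basement membrane chains Col4a1 and Col4a2 had 53.1, 2.88 and 0.66 and 52.1, 3.75 and 0.717 FPKM in lines 199, 233 and 336, and Col4a6, another basement membrane chain, was the lower gene with 0.495, 3.61 and 7.06. Among the 40 largest higher entries of any type, 14 were not protein-coding or had no match in GENCODE M21, and 5 among the 40 largest lower entries.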
